A study of Arabidopsis thaliana with 12 samples.

Results

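The data compare 2 replicate sets of Arabidopsis thaliana seedlings after treatment with abscisic acid (ABA), a hormone that plants make under drought and in ripening seeds. The members are the 6 ABA-treated arrays of the 12 in the series. The 3 arrays labelled replicate 2 (set 2) were set against the 3 arrays labelled replicate 1 (set 1), and every array of set 2 was paired with the set 1 array of its genotype. All seedlings were whole, 10 days old and of the Col-0 background, grown on agar with sucrose at 22 C in days of 16 h light and 8 h dark. The ABA-treated groups, each with 1 array in set 2 and 1 in set 1, were wild-type Col-0, the T-DNA insertion line gem1 and the line GEMoe, which overexpresses GEM from the constitutive 35S promoter. They had received 100 uM ABA for 2 h. The 6 untreated arrays, of the same 3 genotypes and both sets, served as a second comparison of the sets. The labels call the replicates biological but do not say what the sets differed in, such as sowing, day or hour of harvest, and they name no mock treatment. P-values therefore rest on the spread of the set difference between genotypes, pooled over both treatments, and can say nothing of further sets. The seedlings were sampled whole, so fewer cells of a type and less RNA per cell cannot be told apart.

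ABA acts through the soluble PYR/PYL receptors, which when bound to the hormone inhibit clade A protein phosphatases and so release SnRK2 kinases, and these activate transcription factors that turn on genes such as RD29B and RAB18. The receptor genes themselves are known to fall and the phosphatase genes to rise under ABA. The circadian clock, which times a large share of the plant's transcripts, rests on morning transcription factors such as CCA1 and LHY and on evening genes such as TOC1, ELF4 and LUX, which repress each other in turn. Salicylate and jasmonate are defence hormones with largely separate target genes.

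Values are the deposited log2 expression values, and per-array values are given in the order Col-0, gem1, GEMoe. A locus was represented by its brightest transcript feature, by the mean of the 12 arrays, which gave 32627 loci. Differences are set 2 minus set 1 on the log2 scale, as the mean over the 3 genotype pairs, with limma's standard error (SE). The SE and p-value of a locus rest on 1 spread, pooled from the pairs of both treatments. They do not measure the agreement of the 3 ABA-treated pairs alone. A locus was called when its limma p-value, adjusted by Benjamini-Hochberg over all loci, was under 0.05. The array medians lay between 12.16 and 12.22. Between 11.4% and 11.7% of the loci on an ABA-treated array had a value over 15, close to the highest value of 15.95, so that differences at such levels had little room. Arrays of the same set correlated at r = 0.994 to 0.997 across loci, and arrays of different sets at 0.970 to 0.990, as a description of loci that are not independent replicates. Precision is limited by the number of arrays.

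The overexpressor label can be checked on GEM itself (AT2G22475), which lies on chromosome 2 at 9541401 to 9545010. Positions follow the array annotation, and its genome build is not stated in the sources used here. Its brighter feature measured 15.74 in GEMoe of set 2 and 15.73 in GEMoe of set 1 with ABA, and 14.38 to 14.59 in the 4 ABA-treated arrays of Col-0 and gem1. The overexpressor stood above the other genotypes in both sets, and gem1 did not stand below Col-0 on this feature. The dimmer GEM feature differed between the sets in GEMoe. It read 9.54, 11.53 and 9.38 in set 2 and 9.32, 11.33 and 11.98 in set 1 with ABA. Without ABA it read 9.65, 11.62 and 9.56 in set 2 and 9.38, 11.16 and 11.36 in set 1. In both treatments the GEMoe seedlings of set 2 thus read near Col-0 and those of set 1 near gem1. The sources used here do not state whether the GEMoe seedlings of both sets were of 1 line, and every pair treats them as 1 genotype. Results are therefore also given without the GEMoe pair. The array image names carry 1 shared number with positions 1 to 12, and all set 1 arrays had odd and all set 2 arrays even positions, so that position parity and set cannot be told apart.

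With ABA, 5500 loci (16.9%) differed between the sets. Of these, 2633 were higher in set 2 (8.07% of all loci tested) and 2867 were lower (8.79%). The higher ones were 47.9% of the calls, but 37.1% when quantile normalization was applied again, 56.7% in a fit of the 6 ABA-treated arrays alone and 21.0% to 27.5% with 1 genotype's pair left out, so that no majority direction held. The difference reached 2-fold at 794 of the called loci, 385 higher and 409 lower. All 3 set 2 arrays lay above all 3 set 1 arrays at 9119 loci (27.9%) and below them at 7592 loci (23.3%), and the 3 pairs had the same sign at 67.5% of the loci. The median difference over all loci was 0.01, and the median SE was 0.11. The count depended on having all 3 pairs in the fit. Without the Col-0 pair 200 loci were called (42 higher and 158 lower). The count was 243 without the gem1 pair (51 and 192) and 357 without the GEMoe pair (98 and 259). Such fits have fewer residual degrees of freedom than the full fit, so a lost call does not mark the left-out genotype as its source. List counts without a pair are to be read against these smaller totals over the 32627 loci. No locus among the 5500 changed its sign in any of these fits.

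The 30 named genes with the largest differences, 15 higher and 15 lower in set 2, had log2 differences of at least 1.80 upward and at least 2.26 downward. They were chosen among called loci whose ABA-treated sets did not overlap, so that the lack of overlap at these genes is no separate result. All 30 had the same sign in untreated seedlings. There 7 of the 15 rises were also called higher, against 18.7% of all loci, and 12 of the 15 falls lower, against 15.2%. Without the Col-0 pair 15 of the 30 stayed past the threshold, without the gem1 pair 15, and without the GEMoe pair 21.

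**Figure D1:**
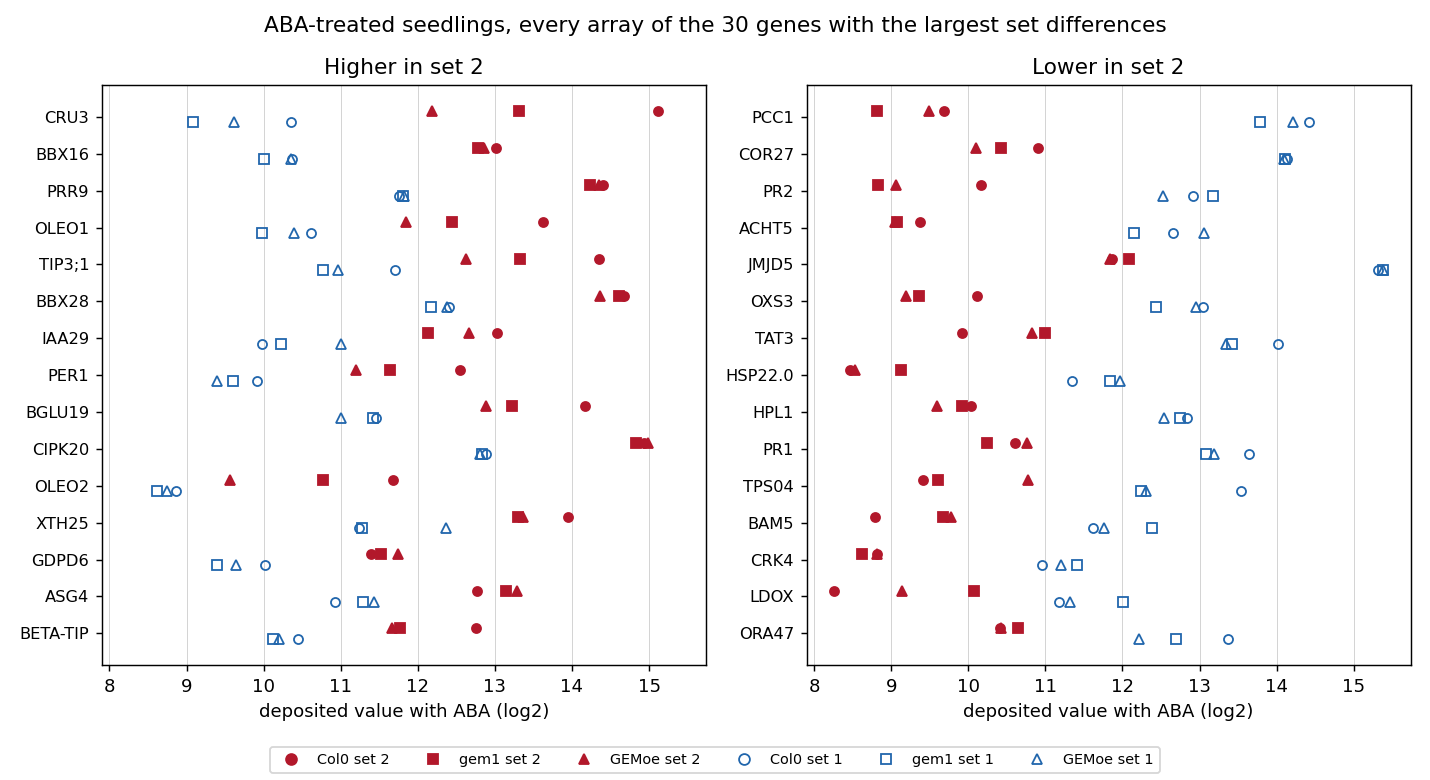
Deposited log2 values (x axis) of the 15 named genes with the largest rises (left) and the 15 with the largest falls (right) in ABA-treated seedlings, 1 symbol per array, filled for set 2 and open for set 1, with the symbol's shape giving the genotype. In every row the 3 filled symbols lie apart from the 3 open ones, as the choice of these genes required, and CRU3 and OLEO1 show a wider spread within set 2 than PRR9 or JMJD5.

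Genes of the circadian clock were apart between the sets. Of 12 morning clock genes, 7 were higher and 2 lower in set 2, and of 11 evening clock genes, 7 were lower and 1 higher. Over all loci, 8.07% were called higher and 8.79% lower. The median difference was 0.62 over the morning list and -0.59 over the evening list, against 0.01 over all loci. With loci of a mean over 15 left out, the medians were 0.92 over 10 morning genes and -1.62 over 5 evening genes. PRR9 (AT2G46790, chromosome 2, 19232649 to 19235076), a pseudo-response regulator that peaks in the morning, measured 14.40, 14.24 and 14.35 in set 2, against 11.76, 11.81 and 11.82 in set 1. The sets did not overlap, as its choice among the 15 largest rises required, and arrays within a set lay close together. The difference was 2.53 (SE 0.07, adjusted p = 0.000324), or 5.78-fold.

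Other morning genes went the same way. LNK3, a member of the LNK family that works with the REVEILLE factors to turn on evening genes, measured 13.83, 13.48 and 13.73 in set 2, against 11.88, 11.85 and 12.06 in set 1, a difference of 1.75 (SE 0.11, adjusted p = 0.00243). Its relative LNK2 was higher by 1.45 (SE 0.08, adjusted p = 0.0019). The central pair CCA1 and LHY, named here after their values were seen, were also higher. CCA1 measured 13.91, 14.04 and 13.71 in set 2 and 12.43, 12.77 and 12.61 in set 1, and LHY 12.09, 12.26 and 12.51 in set 2 and 11.06, 11.10 and 11.06 in set 1. Neither gene's sets overlapped, with differences of 1.28 (adjusted p = 0.0039) and 1.21 (adjusted p = 0.00756). The exceptions were RVE2 and RVE1, REVEILLE relatives of CCA1. RVE2 measured 14.31, 14.25 and 14.05 in set 2, against 15.48, 15.53 and 15.62 in set 1, and was lower by 1.34 on the log2 scale (difference -1.34, adjusted p = 0.00305).

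Evening genes were lower. BOA, a close relative of LUX, measured 10.95, 11.01 and 10.63 in set 2, against 13.08, 13.00 and 13.28 in set 1 (difference -2.26, SE 0.15, adjusted p = 0.00288). PRR3, which stabilises TOC1 protein, measured 12.62, 12.87 and 12.16 in set 2, against 14.68, 14.75 and 14.65 in set 1 (difference -2.14, SE 0.15, adjusted p = 0.00288). ELF4 and LUX, which join in the evening complex of the clock, differed by -1.62 and -1.39 (adjusted p = 0.0062 and 0.00583). For each of these 4 genes every set 2 array lay below every set 1 array. TOC1, the evening repressor of CCA1, averaged 15.06 ± 0.05 in set 2, against 15.65 ± 0.12 in set 1 (SD, n = 3 arrays each), near the top of the scale, and the difference was -0.59 (adjusted p = 0.0169). GI and PRR5, which peak in the afternoon and early evening, differed by -0.11 and -0.07 and were not called. CHE, a TCP factor that binds the CCA1 promoter, was the evening gene called higher, by 0.31.

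The clock lists kept part of their calls in each smaller set of arrays. The morning list had 5 higher and 1 lower call without the Col-0 pair, 4 and 1 without the gem1 pair, and 5 and 1 without the GEMoe pair. The evening list had 2, 3 and 4 lower calls in the same order and no higher one. Those fits called 42, 51 and 98 of all 32627 loci higher and 158, 192 and 259 lower. In untreated seedlings the same lists gave 7 higher and 1 lower call of 12 and 1 higher and 7 lower calls of 11, where 18.7% of all loci were called higher and 15.2% lower. RVE2 was the member of the morning and evening lists whose set difference depended on treatment: untreated it measured 12.31, 12.43 and 12.11 in set 2, against 15.08, 15.28 and 15.04 in set 1 (difference -2.85), and the 2 set differences differed by 1.51 (adjusted p = 0.00984).

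**Figure D2:**
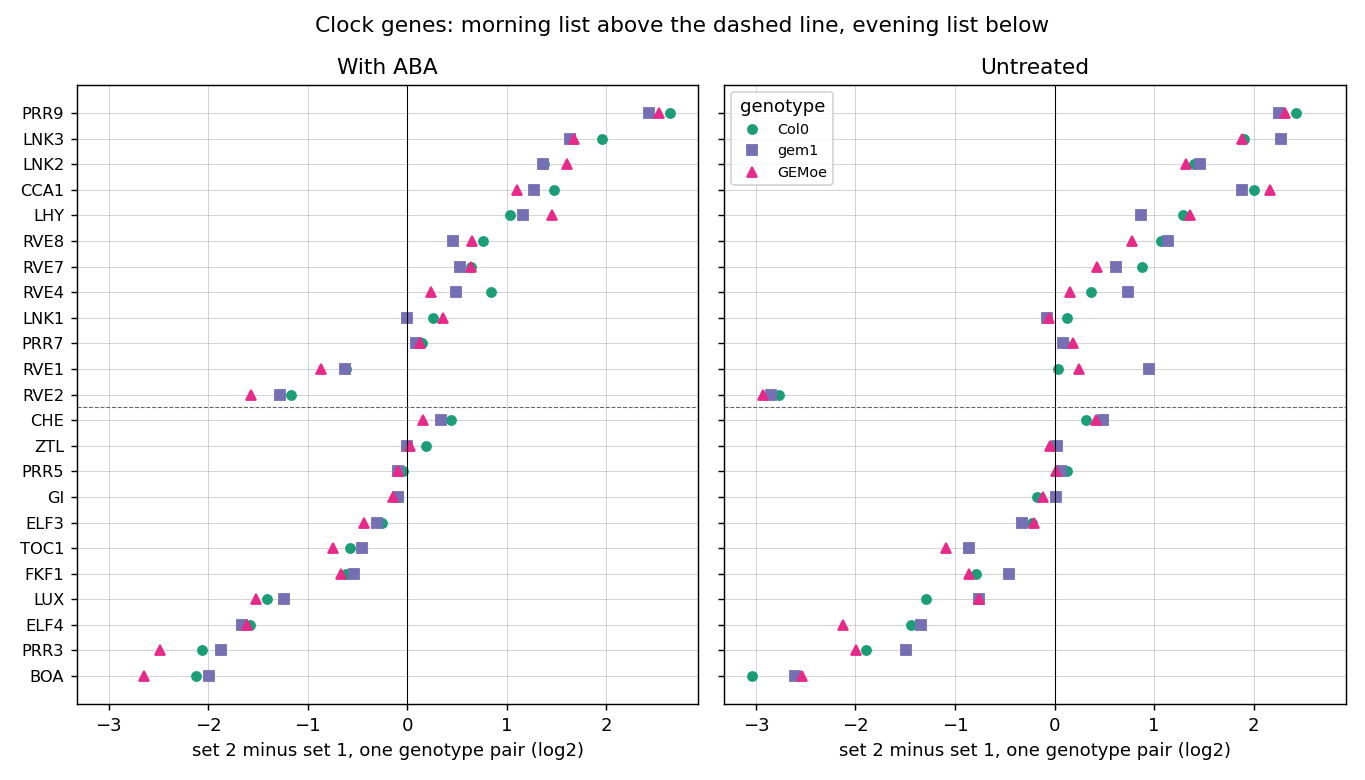
Set 2 minus set 1 (log2, x axis) of the 12 morning and 11 evening clock genes in each genotype pair, with ABA on the left and untreated on the right. The 3 pairs lie close together for most genes, PRR9, LNK3, LNK2, CCA1 and LHY lie right of 0 in both panels, and BOA, PRR3, ELF4 and LUX lie left of it.

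Genes known to be timed by the clock and by light included several of the largest differences. JMJD5 (AT3G20810, chromosome 3, 7275706 to 7278379), a jumonji-domain protein of the clock, measured 11.87, 12.08 and 11.84 in set 2, against 15.32, 15.38 and 15.38 in set 1. The sets were apart by more than 3 on the log2 scale in every pair, and the difference was -3.43 (SE 0.08, adjusted p = 0.000138), or 10.8-fold. COR27, a cold-regulated gene of the evening known as a regulator of the clock, measured 10.91, 10.42 and 10.10 in set 2, against 14.14, 14.11 and 14.09 in set 1 (difference -3.64, adjusted p = 0.00442). AT1G07050, annotated as related to CONSTANS-like proteins and named after its value was seen, measured 10.77, 10.57 and 9.67 in set 2, against 14.54, 14.27 and 14.42 in set 1. It was lower by 4.08 on the log2 scale (difference -4.08, SE 0.31, adjusted p = 0.00401).

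BBX16 and BBX28, of the B-box zinc finger family of light and clock regulators, were higher in set 2. BBX16 (AT1G73870) measured 13.01, 12.78 and 12.86 in set 2, against 10.37, 10.01 and 10.36 in set 1, a 6.22-fold rise (adjusted p = 0.00208). BBX28 (AT4G27310) was 4.70-fold higher (adjusted p = 0.00153). Of 11 clock output genes, 4 were higher and 5 lower, against 8.07% and 8.79% of all loci. The list's median was 0.24, which turned to -0.25 over the 9 left when the dimmest 30% of loci were left out. COL1 and COL2, CONSTANS-like relatives of the flowering gene CO, were higher by 1.41 and 1.00 (adjusted p = 0.00231 and 0.00677). COL9, which delays flowering, was lower, with a difference of -1.43 (adjusted p = 0.00522). Without the Col-0, gem1 and GEMoe pair in turn, that list kept 1, 1 and 2 higher calls and 1 lower call each time. CIPK20, a kinase partnered by calcineurin B-like calcium sensors, measured 14.93, 14.83 and 14.98 in set 2, against 12.89, 12.83 and 12.81 in set 1 (difference 2.07, adjusted p = 0.00154).

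Light and photosynthesis lists gave smaller differences. Over all loci, 8.07% were called higher and 8.79% lower. Of 23 light signalling genes, 3 were higher and 3 lower, with a median of 0.11, which turned to -0.02 over the 17 left when loci with a mean over 15 were left out. ELIP2, which encodes an early light-induced protein of the thylakoid, measured 11.99, 12.60 and 12.19 in set 2, against 13.76, 13.94 and 13.43 in set 1 (difference -1.45, adjusted p = 0.00881). HY5, the transcription factor that promotes light responses, was lower, at 12.72, 12.56 and 12.63 in set 2 and 13.51, 13.60 and 13.64 in set 1 (difference -0.95, adjusted p = 0.00568). Neither gene's sets overlapped. Of 21 light harvesting and Rubisco genes, 17 had a mean over 15 in both sets, and 3 were called higher and 1 lower. PORA, a protochlorophyllide reductase, was the chlorophyll synthesis gene called, at 14.02, 13.35 and 13.73 in set 2 and 12.55, 11.92 and 12.85 in set 1 (difference 1.26, adjusted p = 0.0127), while 8 of the 9 genes of that list had means over 15 in both sets.

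Seed storage genes were higher in set 2 after ABA. Of 23 seed maturation and late embryogenesis abundant (LEA) genes, 8 were higher, against 8.07% of all loci, and none was lower. A positive difference was found at 20 of them, against 51.0% of all loci, with a list median of 0.57. CRU3 (AT4G28520, chromosome 4, 14087567 to 14089796), a cruciferin storage protein, measured 15.11, 13.31 and 12.19 in set 2, against 10.35, 9.09 and 9.62 in set 1. The sets did not overlap, as its choice required, but the set 2 arrays spanned almost 3 log2 units, with Col-0 highest and GEMoe lowest. The difference was 3.85 (SE 0.66, adjusted p = 0.0231), or 14.5-fold, and its adjusted p was 0.107, 0.102 and 0.071 without the Col-0, gem1 and GEMoe pair.

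The same order of genotypes within set 2 recurred in OLEO1, PER1, OLEO2, TIP3;1, BETA-TIP and CRA1. OLEO1, an oleosin of seed oil bodies, measured 13.62, 12.45 and 11.85 in set 2, against 10.61, 9.98 and 10.40 in set 1 (difference 2.31, SE 0.42, adjusted p = 0.0262). PER1, a seed peroxiredoxin, measured 12.55, 11.64 and 11.20 in set 2, against 9.91, 9.60 and 9.39 in set 1 (difference 2.17, SE 0.31, adjusted p = 0.0157). OLEO2 measured 11.68, 10.77 and 9.57 in set 2, against 8.86, 8.62 and 8.75 in set 1 (difference 1.93, adjusted p = 0.0318). In all of these every set 2 array lay above every set 1 array, as their choice among the 15 largest rises required. A pair of tonoplast aquaporin genes of seed storage vacuoles stood beside them among the 15 largest rises: TIP3;1 differed by 2.29 (adjusted p = 0.0221) and BETA-TIP by 1.80 (adjusted p = 0.0115). The cruciferin CRA1, named after its values were seen, measured 15.56, 14.43 and 13.67 in set 2, against 13.02, 11.26 and 12.06 in set 1, and missed the threshold (difference 2.44, SE 0.68, adjusted p = 0.0544).

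The seed genes were less apart without ABA, but that contrast between treatments did not reach the threshold at any of those named above. Untreated, CRU3 averaged 12.10 in set 2 and 9.73 in set 1 (adjusted p = 0.038), and OLEO2 8.93 in set 2 and 8.71 in set 1 (adjusted p = 0.698). The difference between the set differences was 1.48 for CRU3 (adjusted p = 0.738) and 1.71 for OLEO2 (adjusted p = 0.298). ABI3, the transcription factor that drives seed maturation genes, was higher with ABA, at 10.00, 9.50 and 9.62 in set 2 and 9.13, 9.24 and 8.98 in set 1 (difference 0.59, adjusted p = 0.0398). ABI3 no longer passed after quantile normalization was applied again (difference 0.41, adjusted p = 0.0907). The seed list as a whole had no call without the Col-0 or the gem1 pair and 2 without the GEMoe pair. Without the Col-0, gem1 and GEMoe pair only 42, 51 and 98 of all 32627 loci were called higher.

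Salicylate defence genes were lower in set 2. Of 21, 9 were lower, against 8.79% of all loci, and none was higher. The median was -0.72, or -1.13 over the 18 left without the dimmest 30% of loci. PCC1 (AT3G22231, chromosome 3, 7845823 to 7846605), whose name stands for pathogen and circadian controlled, measured 9.68, 8.81 and 9.49 in set 2, against 14.42, 13.78 and 14.21 in set 1. The sets were more than 4 log2 units apart, and the difference was -4.81 (SE 0.47, adjusted p = 0.00666), or 28.0-fold. The ABA-treated pairs differed by -4.75, -4.97 and -4.72 and the untreated pairs by -2.98, -1.44 and -4.29, which widened the pooled SE. PR2, a beta-1,3-glucanase, measured 10.16, 8.83 and 9.06 in set 2, against 12.91, 13.18 and 12.52 in set 1 (difference -3.52, adjusted p = 0.00624). PR1, the standard marker of salicylate responses, measured 10.60, 10.24 and 10.76 in set 2, against 13.64, 13.08 and 13.19 in set 1 (difference -2.77, adjusted p = 0.00562). PR1 and PR2 were lower in untreated seedlings of set 2 too (differences -2.34 and -3.69). ICS1 and NPR1, the main salicylate synthesis enzyme and the salicylate receptor, had differences of 0.22 and 0.06 and were not called. The list had 3 lower calls without the Col-0 pair, 3 without the gem1 pair and 5 without the GEMoe pair. Those fits called 158, 192 and 259 of all 32627 loci lower.

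Jasmonate genes were lower as well. Of 28, 15 were lower and none was higher, against 8.79% of all loci called lower, with a list median of -0.68. All 3 set 2 arrays lay below all 3 set 1 arrays at 21 of the 28, against 23.3% of all loci. TAT3, a tyrosine aminotransferase induced by wounding, measured 9.92, 10.99 and 10.83 in set 2, against 14.02, 13.42 and 13.34 in set 1 (difference -3.01, SE 0.64, adjusted p = 0.0347). JAZ7, JAZ5 and JAZ10, repressors that jasmonate itself induces, differed by -1.84, -1.80 and -1.54 (adjusted p = 0.00208, 0.0243 and 0.0248). JAZ7 measured 9.47, 9.61 and 9.38 in set 2, against 11.57, 11.18 and 11.24 in set 1, with no overlap. The list kept 1 lower call without the Col-0 pair, 1 without the gem1 pair and 6 without the GEMoe pair. In untreated seedlings 12 of the 28 were lower and 1 was higher, against 15.2% and 18.7% of all loci.

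Further genes of wounding and volatile synthesis were among the 15 largest falls. HPL1, annotated as a hydroperoxide lyase, measured 10.03, 9.92 and 9.59 in set 2, against 12.84, 12.74 and 12.54 in set 1 (difference -2.86, SE 0.16, adjusted p = 0.00208). TPS04, a terpene synthase of the homoterpene pathway, measured 9.41, 9.61 and 10.77 in set 2, against 13.54, 12.24 and 12.30 in set 1 (difference -2.76, adjusted p = 0.0356). ORA47, an ERF factor that activates jasmonate synthesis, measured 10.41, 10.65 and 10.42 in set 2, against 13.37, 12.69 and 12.21 in set 1 (difference -2.26, adjusted p = 0.00672). None of the 3 had overlapping sets, as their choice among the 15 largest falls required. ORA47 was close in the untreated sets, at 10.95 on average in set 2 and 11.23 in set 1.

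Secondary metabolism followed the same direction. Of 22 flavonoid and anthocyanin genes, 8 were lower and none was higher (median -0.38), and of 21 glucosinolate genes, 13 were lower and none was higher (median -0.55). Over all loci, 8.79% were called lower. The flavonoid median was -0.74 over the 17 left without the dimmest 30% of loci and -0.63 over the 18 left without loci of a mean over 15. LDOX, which makes the coloured anthocyanidins, measured 8.26, 10.07 and 9.14 in set 2, against 11.18, 12.01 and 11.32 in set 1 (difference -2.34, SE 0.33, adjusted p = 0.0155). DFR, the enzyme before it, measured 9.91, 10.75 and 10.45 in set 2, against 12.14, 12.75 and 12.18 in set 1 (difference -1.99, adjusted p = 0.00522). The early enzyme CHS differed by -0.16 and was not called. In the other pathway MYB122, an activator of indole glucosinolate genes, differed by -1.44 (adjusted p = 0.00912), and CYP79F1, which starts aliphatic glucosinolate synthesis, by -1.08 (adjusted p = 0.0241). CYP79F1 measured 11.93, 12.37 and 12.80 in set 2, against 13.39, 13.53 and 13.42 in set 1. Lower calls without the Col-0, gem1 and GEMoe pair numbered 2, 2 and 3 in the flavonoid list and 1, 2 and 3 in the glucosinolate list. Untreated, 17 of the 22 flavonoid genes and 12 of the 21 glucosinolate genes were lower, and 1 of each list was higher. Over all untreated loci, 15.2% were called lower and 18.7% higher.

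Epidermal fate regulators, the pathway in which GEM is known, were lower at 7 of 16 genes, against 8.79% of all loci, and higher at none (median -0.44). GL3, a bHLH factor of trichome and root hair patterning, measured 8.44, 9.0 and 8.62 in set 2, against 9.93, 9.93 and 10.08 in set 1 (difference -1.30, SE 0.25, adjusted p = 0.0296). GL1, its MYB partner in trichomes, measured 11.01, 10.86 and 10.65 in set 2, against 11.62, 11.56 and 11.65 in set 1 (difference -0.77, adjusted p = 0.0101). The list's median was -0.27 without the GEMoe pair, with 1 lower call, and it had no call without the Col-0 or the gem1 pair. Without the Col-0, gem1 and GEMoe pair only 158, 192 and 259 of all 32627 loci were called lower. None of 22 root hair genes was called, although PRP1, a proline-rich root hair wall protein, measured 14.27, 14.04 and 13.64 in set 2 and 13.04, 13.02 and 13.60 in set 1. Its pairs differed by 1.23, 1.02 and 0.04, so that GEMoe was level, and its adjusted p was 0.0793.

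Class III peroxidase genes, of which 3 are named here after their values were seen, were among the loci with large falls. AT2G18150 measured 11.59, 12.21 and 12.18 in set 2, against 14.67, 14.34 and 14.86 in set 1 (difference -2.63, adjusted p = 0.00966). Its neighbour AT2G18140 and the gene AT4G36430 differed by -2.57 and -2.40 (adjusted p = 0.00637 and 0.0144). Related genes can share probe signal, which was not tested. All 69 genes annotated as putative peroxidases had a median of -0.08, and 14 of them (20.3%) were called lower, against 8.79% of all loci. This class was added to the planned ones.

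Auxin response genes were higher. Of 21, 8 were higher, against 8.07% of all loci, and none was lower (median 0.25). The list's median in the Col-0, gem1 and GEMoe pair was 0.77, 0.41 and 0.11, and it was 0.68 without the GEMoe pair. IAA29, an auxin-induced repressor also known as a target of the light-regulated PIF factors, measured 13.03, 12.13 and 12.66 in set 2, against 9.98, 10.22 and 11.01 in set 1 (difference 2.21, SE 0.29, adjusted p = 0.0132). SAUR24 and SAUR20, small auxin-up RNAs of growing tissue, differed by 1.04 and 0.82 (adjusted p = 0.0113 and 0.0425). These SAUR genes are near-identical neighbours, and whether their probes tell them apart was not tested. The list had no call without the Col-0 or the gem1 pair and 3 higher calls without the GEMoe pair. Those fits called only 42, 51 and 98 of all 32627 loci higher. XTH25, a xyloglucan-modifying wall enzyme, was among the 15 largest rises, at 13.95, 13.30 and 13.36 in set 2 and 11.24, 11.27 and 12.36 in set 1 (difference 1.92, adjusted p = 0.0181).

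The nutrient genes BT2 and SDI1 were lower in set 2, though BAM5 of the sugar-induced list fell further (difference -2.51). BT2, a BTB and TAZ domain protein induced by nitrate, measured 14.23, 13.57 and 13.28 in set 2, against 15.68, 15.59 and 15.71 in set 1 (difference -1.97, adjusted p = 0.0072). SDI1, a sulfur deficiency gene that restrains glucosinolate synthesis, measured 10.70, 10.73 and 10.84 in set 2, against 12.44, 12.48 and 12.23 in set 1 (difference -1.63, adjusted p = 0.00208). Both were apart in every pair. The lists as a whole gave 3 lower calls of 11 sulfur deficiency genes, 3 of 19 phosphate starvation genes, 2 of 23 nitrate and ammonium genes and 2 of 21 iron genes, with no higher call in any of these, against 8.79% of all loci called lower. Of 14 copper and zinc genes, CSD2, a superoxide dismutase, was higher (difference 0.58, adjusted p = 0.0158) and HMA2, a zinc transporter, lower (difference -0.87, adjusted p = 0.0258). Without the Col-0, gem1 and GEMoe pair in turn, the phosphate list kept 1, 0 and 0 lower calls and the iron list 0, 1 and 0.

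As lists, the ABA-induced genes and the phosphatases were close in the 2 sets after ABA. Of 10 SnRK2 kinases and of 10 ABA transcription factors, 1 each was higher in set 2, against 8.07% of all loci. Of 18 genes of ABA synthesis and breakdown, 2 were higher and 1 lower. Of 33 ABA-induced genes, 2 were higher and none was lower, against 8.07% and 8.79% of all loci. Their median was 0.04, and 20 had means over 15 in both sets. Of the 9 clade A phosphatases none was called with ABA, and 8 had means over 15 in both sets. Of 14 receptor genes, 6 were called lower, against 8.79% of all loci, and none higher, while 6 had a positive difference. The receptor median was -0.22 (-0.36 over the 9 left without the dimmest 30% of loci). PYL4 measured 12.95, 12.36 and 12.21 in set 2, against 13.74, 13.45 and 13.68 in set 1 (difference -1.12, SE 0.13, adjusted p = 0.00955). PYL5 measured 11.72, 11.71 and 11.68 in set 2, against 12.54, 12.46 and 12.88 in set 1 (difference -0.92, adjusted p = 0.00887). PYL6 and PYL8 differed by -0.84 and -0.82 (adjusted p = 0.0469 and 0.00881). The sets did not overlap at any of these 4 receptors. Lower receptor calls numbered 1 without the Col-0 pair, 1 without the gem1 pair and 2 without the GEMoe pair.

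Whether the set difference itself depended on ABA was tested as the difference with ABA minus the difference without ABA. It was called at 414 loci (1.27%), 209 higher (0.641%) and 205 lower (0.628%), and at 336 of the 414 the set difference was smaller in size with ABA. The sets differed at 5500 loci with ABA and at 11035 loci (33.8%) without it. That order depended on the pooled spread: fits of each treatment's 6 arrays alone called 8690 loci with ABA and 2155 without. The median size of the set difference over all loci was 0.21 with ABA and 0.25 without. Of the 414 loci, 268 were called between the untreated sets but not between the ABA-treated ones, 41 the other way round and 105 in both. The count of 414 depended on which pairs were in the fit, and a fit without a genotype also has fewer residual degrees of freedom. Whether single genotypes carried the calls was not tested. The count was 0 in limma without the Col-0 pairs, with 2115 loci at an unadjusted p under 0.05, and 0 without the gem1 pairs, with 2077. Without the GEMoe pairs it was 3753.

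**Figure D3:**
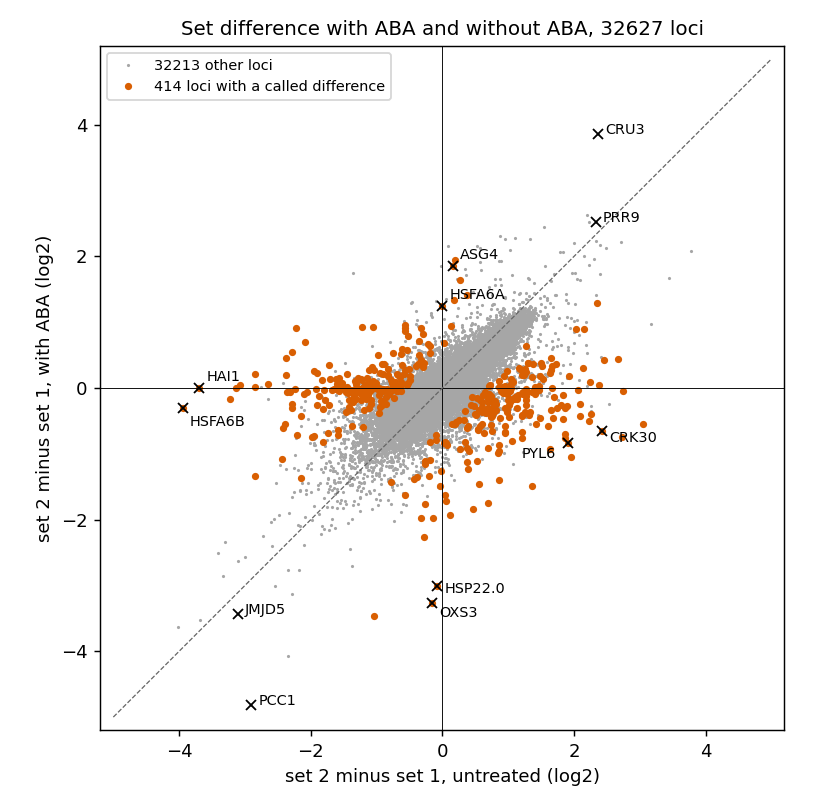
Set 2 minus set 1 with ABA (y axis, log2) against the same difference without ABA (x axis, log2) for 32627 loci, with the 414 called loci in colour and the dashed line marking equal differences. Many coloured points lie in a band near 0 on the y axis, HAI1 and HSFA6B at its left end and CRK30 on its right, while OXS3 and HSP22.0 lie near 0 on the x axis and far down the y axis.

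HAI1 and HSFA6B had the largest such differences upward. HAI1 (AT5G59220, chromosome 5, 23894404 to 23896619), a highly ABA-induced clade A phosphatase, measured 15.85, 15.80 and 15.81 in ABA-treated set 2 and 15.78, 15.88 and 15.81 in ABA-treated set 1. Untreated, it measured 10.18, 9.84 and 10.13 in set 2, against 13.73, 13.60 and 13.93 in set 1. The untreated sets were thus almost 4 log2 units apart and the treated sets level, near the top of the scale, and the difference between the set differences was 3.70 (SE 0.11, adjusted p = 0.000665). HSFA6B, a heat shock factor known to act in ABA responses, measured 15.28, 15.39 and 15.29 in set 2 and 15.64, 15.66 and 15.56 in set 1 with ABA. Untreated, HSFA6B measured 9.60, 9.28 and 9.23 in set 2, against 13.36, 13.40 and 13.18 in set 1, and its set differences differed by 3.64 (adjusted p = 0.000665).

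The wider ABA-induced list behaved alike in its counts. Untreated, 22 of the 33 genes were lower in set 2, against 15.2% of all loci, and none was higher (median -0.89). At 14 the difference between the treatments was called, each time upward, against 0.641% of all loci. The list's median level was 15.37 in set 2 and 15.22 in set 1 with ABA, and 11.25 in set 2 and 12.91 in set 1 without. AFP1, a partner of ABI5, averaged 15.55 in set 2 and 15.50 in set 1 with ABA, and 9.68 in set 2 and 12.75 in set 1 without (interaction 3.13, adjusted p = 0.00219). RD20, a caleosin induced by drought and named after its values were seen, averaged 15.58 in set 2 and 15.57 in set 1 with ABA, and 10.05 in set 2 and 12.91 in set 1 without. With most treated levels over 15, how much of the match after ABA comes from the limit of the scale was not tested. HSFA6A and MYB102, which stayed below 15, were the 2 genes of the list called higher in set 2 after ABA. HSFA6A measured 14.50, 14.33 and 14.33 in set 2, against 13.21, 13.10 and 13.11 in set 1 (difference 1.25, adjusted p = 0.00455), and averaged 9.25 in both untreated sets.

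**Figure D4:**
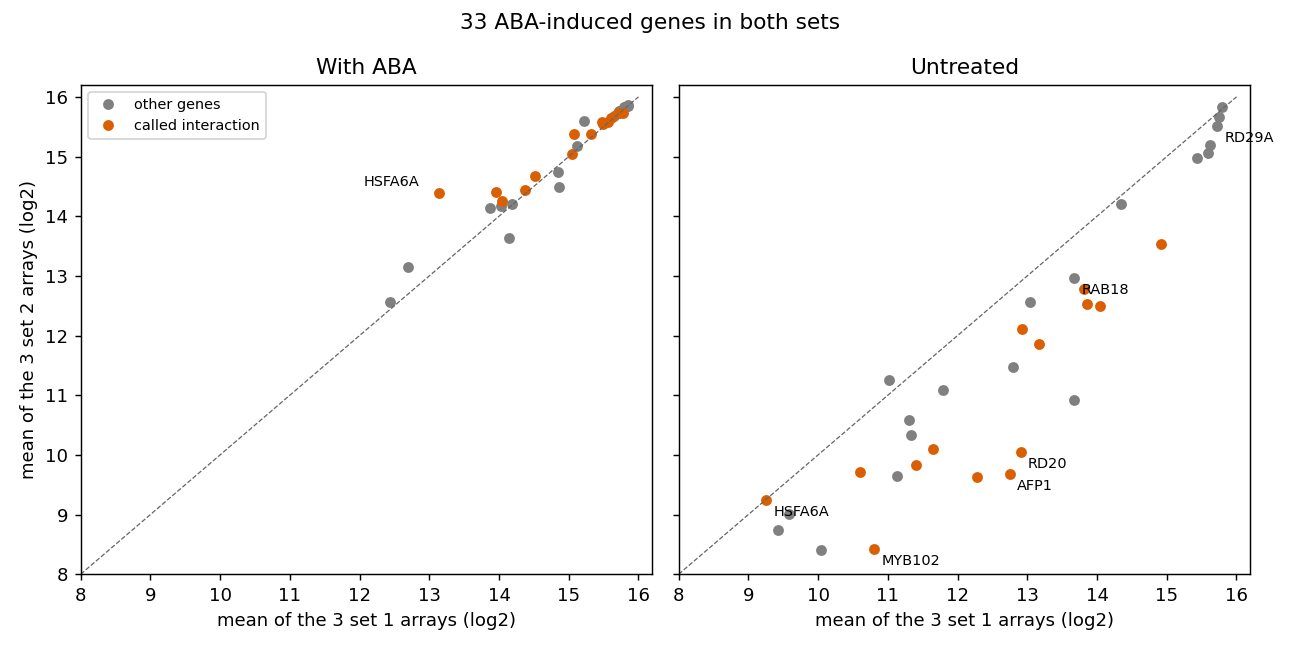
Mean log2 value of the 3 set 2 arrays (y axis) against that of the 3 set 1 arrays (x axis) for 33 ABA-induced genes, with ABA on the left and untreated on the right, and the 14 genes with a called interaction in colour. With ABA the points lie along the dashed line of equal values and crowd over 15, and untreated most coloured points lie below it.

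Of the 14 receptors, 5 had a called interaction, all downward, against 0.628% of all loci. PYL6 measured 9.06, 9.33 and 9.02 in ABA-treated set 2 and 10.11, 9.68 and 10.12 in ABA-treated set 1. Untreated, PYL6 measured 14.29, 14.78 and 14.90 in set 2, against 12.86, 12.83 and 12.52 in set 1, so that set 2 was the higher without ABA and the lower with it. The fall under ABA averaged -5.52 log2 units in set 2 and -2.76 in set 1 (interaction -2.75, adjusted p = 0.0199). PYL5 did the same, at 15.17, 15.26 and 15.40 in untreated set 2 and 13.63, 13.57 and 13.73 in untreated set 1 (interaction -2.56, adjusted p = 0.0034).

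Other genes were apart between the sets with ABA and close without it. HSP22.0, a small heat shock protein of the endoplasmic reticulum, measured 8.47, 9.13 and 8.53 in set 2, against 11.34, 11.84 and 11.97 in set 1 with ABA. Untreated, it measured 7.62, 7.88 and 7.66 in set 2 and 7.93, 7.72 and 7.73 in set 1, at the dim end of the scale (interaction -2.93, adjusted p = 0.00764). OXS3, a stress tolerance protein, measured 10.11, 9.36 and 9.19 in set 2, against 13.04, 12.44 and 12.95 in set 1 with ABA, and 10.84, 12.29 and 11.92 in set 2 and 11.32, 11.61 and 12.58 in set 1 without. Its untreated sets overlapped and its treated sets did not (interaction -3.11, adjusted p = 0.0298). APX2, a stress-induced ascorbate peroxidase, averaged 10.69 in set 2 and 12.61 in set 1 with ABA, and 8.58 in set 2 and 8.46 in set 1 without (interaction -2.05, adjusted p = 0.00664). Of 20 heat shock genes, 7 were lower with ABA, against 8.79% of all loci, and none was higher (median -0.31). Without the Col-0, gem1 and GEMoe pair the list had 3, 2 and 3 lower calls.

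The regulators ASG4 and CBF2 were higher in set 2 after ABA, and neither passed the threshold in untreated seedlings. ASG4, a REVEILLE-type MYB factor, measured 12.77, 13.14 and 13.29 in set 2, against 10.93, 11.29 and 11.43 in set 1 with ABA (difference 1.85, SE 0.09, adjusted p = 0.00154). Untreated, ASG4 averaged 9.52 in set 2 and 9.36 in set 1 (interaction 1.70, adjusted p = 0.00711). CBF2, a transcription factor of cold acclimation, measured 14.00, 14.24 and 14.17 in set 2, against 12.45, 12.58 and 12.46 in set 1 with ABA (difference 1.64, adjusted p = 0.00262), and averaged 11.86 in set 2 and 11.59 in set 1 without. Neither gene's treated sets overlapped. CBF2 lies beside near-identical relatives, and sharing of probe signal among them was not tested.

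Touch and rapid stress genes respond within minutes to handling. With ABA 8 of 24 were lower in set 2, against 8.79% of all loci, and none was higher (median -0.34). Untreated, 13 were higher and 3 lower (median 0.47), against 18.7% and 15.2% of all loci. An interaction was called at 8, all downward, against 0.628% of all loci. ERF2, an ethylene response factor, measured 12.77, 12.50 and 12.62 in set 2, against 13.96, 13.12 and 13.56 in set 1 with ABA, and averaged 13.73 in set 2 and 13.03 in set 1 without (interaction -1.61, adjusted p = 0.0313). WRKY46 was lower in both treatments, with differences of -1.26 with ABA and -1.07 without. The touch list had no call with ABA without the Col-0 or the gem1 pair, and 3 lower calls without the GEMoe pair. Those fits called only 158, 192 and 259 of all 32627 loci lower.

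Transposable element genes, which are mostly silenced in plants, were higher in set 2. Of 3853 loci annotated as transposable element genes, 1026 (26.6%) were higher in set 2 and 3 were lower, and 95.9% had a positive difference, with a median of 0.66. They made up 39.0% of all higher calls and 11.8% of the loci. The class median was 0.49 in the Col-0 pair, 0.46 in the gem1 pair and 1.02 in the GEMoe pair. The median level was 10.53 in set 2 and 9.88 in set 1. Without the Col-0, gem1 or GEMoe pair the median was 0.74, 0.75 and 0.48, but 0, 3 and 1 of these loci were called higher. Those fits called 42, 51 and 98 of all 32627 loci higher. In untreated seedlings 65.7% were higher, against 18.7% of all loci, with a median of 0.75. After quantile normalization was applied again the median was 0.55, and 484 were called higher.

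Other non-coding or organelle classes varied, against 8.07% of all loci called higher. The 704 loci described as pseudogenes had a median of 0.21, with 12.4% called higher. The 232 transfer RNA loci had a median of 0.40, with 7.76% called higher, and the 107 mitochondrial loci 0.32, with 0.935% called higher. The 150 microRNA loci had a median of -0.03, with 7.33% called higher. No plastid locus was called, and these loci had a median of 0.04, at a median level of 15.81 in set 2 and 15.78 in set 1. Of the 412 pentatricopeptide repeat genes, whose proteins process organelle transcripts, 24.0% were lower, against 8.79% of all loci, with a median of -0.27. This class and that of the transfer RNA loci were added to the planned classes. Among the 26490 protein-coding loci, 5.31% were called higher and 10.6% lower. Higher calls made up 4.72% of the dimmest decile by mean level and 16.0% of the third, the highest share, and lower calls in the middle, at 16.1% of the fifth decile. What part these class differences have in the differences of single genes was not tested.

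**Figure D5:**
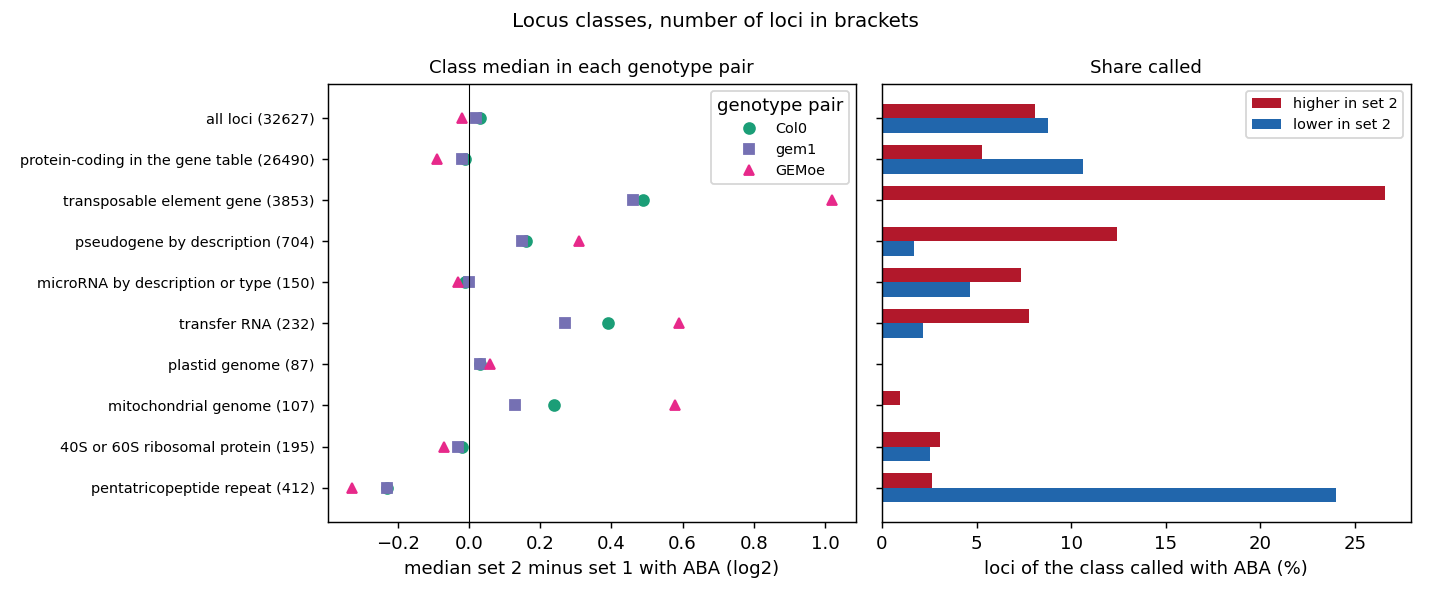
Left, the median of set 2 minus set 1 with ABA (log2) in each genotype pair for classes of loci, and right, the percentage of each class called higher (upper bar) and lower (lower bar) in set 2. Transposable element genes lie furthest right, at 0.49, 0.46 and 1.02, and pentatricopeptide repeat genes have the largest share of lower calls, 24.0%. The transfer RNA and pentatricopeptide repeat classes were added to the planned ones.

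Markers of tissues had 0 to 2 calls a list, all lower, against 8.79% of all loci called lower. None of the 8 flower and pollen markers was called, and their median level was 8.50 in set 2 and 8.42 in set 1, at the dim end of the scale. Of 23 root tissue markers, 2 were lower and none was higher, among them WOX5, of the root quiescent centre, which differed by -0.33. Of 10 shoot meristem and leaf markers, 2 were lower and none was higher (median -0.19): STM, which maintains the shoot meristem, differed by -0.56 (adjusted p = 0.0458) and TCP4, a leaf growth regulator, by -0.27 (adjusted p = 0.0419). Untreated, 5 of these 10 were lower, against 15.2% of all loci. Of 14 stomatal and guard cell genes 1 was lower: FAMA, which completes guard cell fate, measured 12.84, 12.73 and 12.56 in set 2 and 13.31, 13.11 and 13.31 in set 1 (difference -0.53, adjusted p = 0.0315). None of 10 genes in use as stable references was called, with a median of 0.03, but 7 of the 10 had means over 15 in both sets, where a difference has little room to show. Of 24 cell cycle genes 1 was lower, and 4 of the 24 had a positive difference, with a median of -0.14.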

How the data were processed

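RNA of 12 seedling samples, 2 in each of 6 groups, was labelled with Cy3 and each sample was read on an array of its own. Each feature's deposited value is a log2 expression level from RMA, the method that the submitters' processing notes name without a version. The log2 scale was inferred from the range of the values, 6.99 to 15.95. RMA makes the arrays' distributions equal before probes are combined into features, so a change of total RNA would not be seen. The deposited feature values were close but not equal in distribution, with array medians of 12.16 to 12.22. The deposited files also give the probe number per feature, 1 to 4. No source used here gives the genome build of the array annotation.

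Of 37118 features the one with the highest mean over 12 arrays was kept for each of 32627 loci (3602 had several), with no filter on dim loci. Names came from the array annotation and the TAIR10.1 gene table, used for names and locus types only (31993 loci matched). One limma fit (limma 3.58.1, R 4.3.3) on all 12 arrays held the 6 group means and a set term within each treatment, which compares the sets within genotype and left 4 residual degrees of freedom (2.35 prior). Tests were two-sided, adjusted by Benjamini-Hochberg over all loci, with a threshold of 0.05. On simulated data of the ABA comparison over 32627 loci, 10%, 64%, 92% and 100% of 50 loci each were recovered at log2 changes of 0.5, 1, 2 and 3, with 6 false calls. All other loci were simulated without a set difference and with independent noise, unlike the data, where 5500 loci were called. These rates therefore do not carry over to the real comparison.

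Named genes were the 15 largest rises and 15 largest falls past the threshold with a symbol and no overlap, the 5 largest of each direction for the difference between treatments, up to 4 called members per list (or else the 2 largest), and GEM. Members of 49 lists were chosen with earlier results of these data known, and 810 of 826 could be named. Some further members are given with their differences beside a list's count. Tables were made with pandas 2.3.3 in Python 3.11.15. The alternatives were another set of arrays or terms in the fit, filters, scalings, features and each genotype's pair left out. Protein-coding loci alone and the transposable element median were added after seeing the data. The transfer RNA, pentatricopeptide repeat and putative peroxidase classes were also added to the planned ones. One further gene result is not reported here.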

Additional observations from a re-analysis of the deposited data

Results flagged for a closer look

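The set difference differed between ABA-treated and untreated seedlings at 414 loci in limma's interaction test. Values below are the set 2 minus set 1 difference with ABA minus the same difference without ABA, on the log2 scale, for the named genes that passed that test. The counts without 1 genotype's pairs are given in the report, and no explanation was weighed.

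In the ABA pathway HAI1 had 3.70, HSFA6B 3.64, LEA4-5 3.14, AFP1 3.13, RD20 2.87, MYB102 2.83, HSFA6A 1.25 and the phosphatase gene ABI1 0.61. The receptors went the other way, with -1.49 for PYL4, -2.56 for PYL5, -2.75 for PYL6 and -0.86 for PYL8. CYP707A3, which breaks ABA down, had -2.02. The sugar transporter gene SWEET4 had 3.12.

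Among cold, clock and light genes ASG4 had 1.70, CBF2 1.38, CBF3 1.99, GOLS3 1.48, RVE2 1.51, COL1 1.04 and BBX30 1.23. Among stress genes OXS3 had -3.11, HSP22.0 -2.93, HSP17.4 -2.79, HSFA7A -1.20, APX2 -2.05, ERF2 -1.61, ACHT5 -2.41 and the glutathione transferase gene GSTU4 1.5. Among defence genes CRK30 had -3.09, the peroxidase gene PER4 -3.00, WRKY18 -2.26, WRKY54 -1.5 and ORA47 -1.98. Among nutrient genes BT2 had -1.83, F6'H1 -1.73, SDI1 -1.06 and SPX1 -0.69.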

How the results depend on the processing

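No paired analysis was possible by replicate number because that number is itself the comparison, while the fit used pairs the sets by genotype. With ABA the 5500 calls became 11100 without the genotype term, 8352 with a variance trend, 14680 with array weights, 8690 from the 6 ABA-treated arrays alone and 794 with a 2-fold minimum, and with 1 genotype's pair left out they ranged from 200 to 357. The 11035 untreated calls became 2155 from the 6 untreated arrays alone and 2261 with a 2-fold minimum, and ranged from 1846 to 13970 with a pair left out. The 414 interaction calls became 946 without the genotype term, 811 with a variance trend, 1170 with array weights and 654 among protein-coding loci alone, and ranged from 0 to 3753 with a genotype's pairs left out. With array weights the higher share of the interaction calls was 65.1%, against 50.5%. Of the calls with ABA 47.9% were higher, against 34.5% among protein-coding loci alone, 38.2% without the dimmest 30% of loci, 54.2% without loci of a mean over 15, 55.3% with a variance trend, 55.7% with array weights and 55.9% without the genotype term. Counts under the other alternatives stayed within 1.5 times. No named gene reversed under any alternative run, and among all repeats of the named calls 363 lost the call and 1854 did not. Of the list medians under the alternatives, 42 moved by more than the spread between pairs and 458 did not. The cause was not tested. With 3 pairs, 4 residual degrees of freedom and many levels over 15, small differences and those of bright genes were at the limit of what these arrays show.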

Other observations

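Several further genes separated the sets after ABA. ACHT5, an atypical thioredoxin of the chloroplast, measured 9.37, 9.07 and 9.05 in set 2, against 12.66, 12.15 and 13.06 in set 1 (difference -3.46, adjusted p = 0.00208). BAM5, a beta-amylase that sugar induces, measured 8.79, 9.67 and 9.77 in set 2, against 11.62, 12.38 and 11.76 in set 1 (difference -2.51, adjusted p = 0.0104). CRK4, a cysteine-rich receptor-like kinase, differed by -2.44 (adjusted p = 0.012). BGLU19, a beta-glucosidase, and GDPD6, a glycerophosphodiester phosphodiesterase, were higher, by 2.13 (adjusted p = 0.0488) and 1.86 (adjusted p = 0.0062). BGLU19 missed the threshold after quantile normalization was applied again (adjusted p = 0.0526).

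Hormone metabolism differed at single genes. ACS8, an ethylene synthesis enzyme, measured 11.90, 12.52 and 12.20 in set 2, against 10.04, 10.77 and 10.56 in set 1 (difference 1.75, adjusted p = 0.0194). Of 18 gibberellin genes 4 were lower, against 8.79% of all loci, and none was higher. Among them were GA2OX2, which inactivates gibberellin (difference -1.20, adjusted p = 0.00516), and GA3OX2, which makes the active form (difference -1.14, adjusted p = 0.0156). CYP707A2, an ABA 8'-hydroxylase, measured 14.12, 14.61 and 14.62 in set 2, against 13.15, 13.73 and 13.34 in set 1 (difference 1.04, adjusted p = 0.0395). At none of these 4 genes did the sets overlap with ABA.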
